A study of Schizosaccharomyces pombe with 24 samples.

Results

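The genes described here lie near the ends of chromosomes I and II of fission yeast (Schizosaccharomyces pombe). They are the genes whose systematic names begin with 1 of 9 clone prefixes: SPAC212 and SPAC977 at the left end of chromosome I, SPAC186 and SPAC750 at its right end, SPBC1348, SPBPB21E7 and SPBPB10D8 at the left end of chromosome II, and SPBPB2B2 and SPBCPT2R1 at its right end. The rule leaves out 7 genes of these clones, among them the telomere-linked helicase genes tlh1 and tlh2. It uses names only and no measured value, and it gives 84 of the 6877 genes in the count files. All 84 are protein coding in the reference annotation, and 23 of them are annotated as uncharacterized.

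RNA sequencing was used to compare wild-type cells, labelled wt (975 h+), with cells labelled clr4D (975 h+ clr4D::NatMX6), in which the gene for Clr4 is given as replaced by a drug marker. Both strains grew at 32 °C in EMM with adenine, histidine, leucine, lysine and uracil, were washed, and were kept at 32 °C in the same minimal medium lacking nitrogen. RNA depleted of ribosomal RNA was sequenced at 0, 1, 2, 4, 10 and 24 h without nitrogen, with 2 biological replicates per strain and time, which makes 12 groups and 24 libraries. Neither strain was kept on a nitrogen source alongside, so time in culture and time without nitrogen cannot be told apart, and each strain is represented by a single genotype.

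Clr4 places methyl groups on lysine 9 of histone H3 in fission yeast. The mark recruits Swi6 and related proteins and forms heterochromatin at centromeres, at the mating-type region and at the chromosome ends, where most genes are transcribed little in growing cells. Subtelomeres hold many duplicated gene families, among them transporters, cell-surface glycoproteins and enzymes of nitrogen and sugar use, and many of their genes respond to nitrogen starvation. Cells deprived of nitrogen either mate and sporulate or, where no partner is present, arrest as quiescent cells.

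Gene reads ranged from 637723 to 4427020 per library (637723 to 4427020 in wt, 638879 to 1807900 in clr4D-labelled libraries), and 0.1085% to 0.4448% of them fell on the 84 genes. Replicates had a correlation over genes between 0.9595 (wt 4 h) and 0.9905. Reads on the clr4 feature were not absent from the libraries labelled clr4D, where its level was 111.8 to 427.3 CPM against 89.3 to 171.6 CPM in wt (CPM are counts scaled to a common library total after TMM, which adjusts for differences in composition between libraries). The strain is therefore called by its label below. In wt, tlh2 stood at 33.6 CPM in replicate 2 at 0 h and at 1.805 CPM in replicate 1, while its mean was 103.5 to 179.1 CPM in the clr4D-labelled groups. Marker genes of M cells and of meiosis differed between the strains: 5 of 5 M-cell genes summed to 7536.4 to 9100.9 CPM at 10 h in clr4D-labelled libraries against 129.9 to 131.6 in wt, and 8 of 8 genes of middle and late meiosis to 7354.8 to 15420.7 against 180.9 to 195.7. No gene of either list was at 0 in either strain. At 24 h the M-cell sums were 3655.1 to 4373.8 against 113.2 to 131.1 CPM and the meiosis sums 7662.5 to 15061.9 against 227.7 to 237.9 CPM. The part of these cells in the results below was not tested, and in bulk RNA fewer cells of a type and less RNA per cell cannot be told apart.

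Of the 84 genes, 33 had enough reads to be tested, by the default read filter of edgeR, and 51 did not. Among the 51, 19 had 10 or more reads over the 24 libraries, 11 had 1 to 9 reads and 21 had none. The clones differed widely in this respect. SPBPB21E7 had enough reads for 7 of its 8 genes and SPBPB2B2 for 10 of 17. SPBPB10D8 followed with 3 of 6, SPAC977 with 6 of 17, SPAC186 with 2 of 6 and SPAC212 with 2 of 6. SPBCPT2R1 had 1 of 4 and SPBC1348 2 of 13, and no gene of the 7 on SPAC750 had enough. Of the 122059 reads on the 84 genes, SPBPB2B2 held 55.5%, SPAC977 20.4% and SPBPB21E7 19.3%. The remaining clones each held 2.81% or less, down to 0.0729% on SPAC750.

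**Figure D1:**
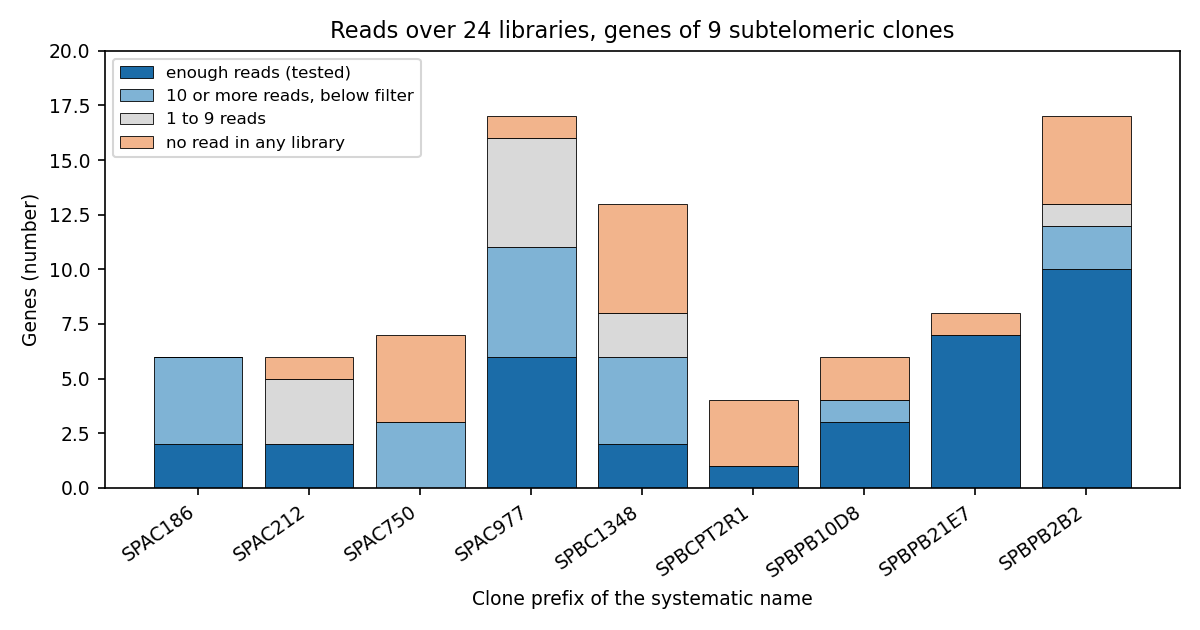
Number of genes per clone (vertical axis) by how many reads they had over 24 libraries, with 1 bar per clone prefix. SPBPB21E7 has 7 of 8 genes with enough reads and SPAC750 has 0 of 7.

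Reads that aligned to more than 1 place were not counted, and they made up 5.43% to 10.79% of wt libraries and 7.41% to 12.37% of clr4D-labelled libraries. How much of each gene could receive a counted read was estimated from the reference sequence (ASM294v3, a later build than the ASM294v2 of the counts) as the share of its exonic windows of 50 bases that occur at 1 place only. For 30 genes every window was unique, and 25 of these had enough reads, with a median of 935.5 reads in all. For 53 genes under 50% of windows were unique, and 7 of these had enough reads, with a median of 4 reads. Of the 21 genes with no read, 17 had no unique window at all. A count of 0 in such a gene says little about its RNA. The 7 tested genes with under 50% unique windows were SPAC212.04c (40.7%), SPAC212.08c (48.4%), SPAC977.12 (26.7%), SPBC1348.07 (10.5%), SPBCPT2R1.04c (9.6%), SPBPB10D8.07c (0.0%) and SPBPB21E7.09 (41.7%). SPBPB10D8.07c had 143 reads although none of its windows was unique in this build, so where its reads came from is not known. The values of the others come from the unique part of each gene and are uncertain to that extent.

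The filter asks for about 6.96 CPM in 2 libraries, and not every tested gene met it in both strains. SPAC212.08c, SPAC977.15, SPBC1348.07, SPBCPT2R1.04c and SPBPB10D8.07c passed only through clr4D-labelled libraries, and pfl9 only through wt libraries. Of all tested genes, 4.25% passed only through clr4D-labelled libraries and 0.353% only through wt. The group in which such a gene is high admitted it to the test, so its strain calls are given as values and count as no support. The other 27 passed through either strain, as did 94.9% of all tested genes, and their counts are given beside those of the 33.

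Among the tested genes, nrg1 on SPBPB2B2, annotated as an amino acid permease, had the highest levels. It stood at 4.5 and 7.2 CPM in wt at 0 h, at 1047 and 930.6 at 1 h, at 905.6 and 974.6 at 2 h, at 865.6 and 919.2 at 4 h, at 1653 and 1873 at 10 h and at 2119 and 2436 at 24 h. In clr4D-labelled libraries it stood at 2.1 and 0 CPM at 0 h, 761.6 and 759.7 at 1 h, 582.5 and 617.7 at 2 h, 382.5 and 410.4 at 4 h, 563.5 and 579.9 at 10 h and 1218 and 1365 at 24 h. Both strains were near 0 before starvation, and from 1 h on every wt library lay above both clr4D-labelled libraries of its time.

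**Figure D2:**
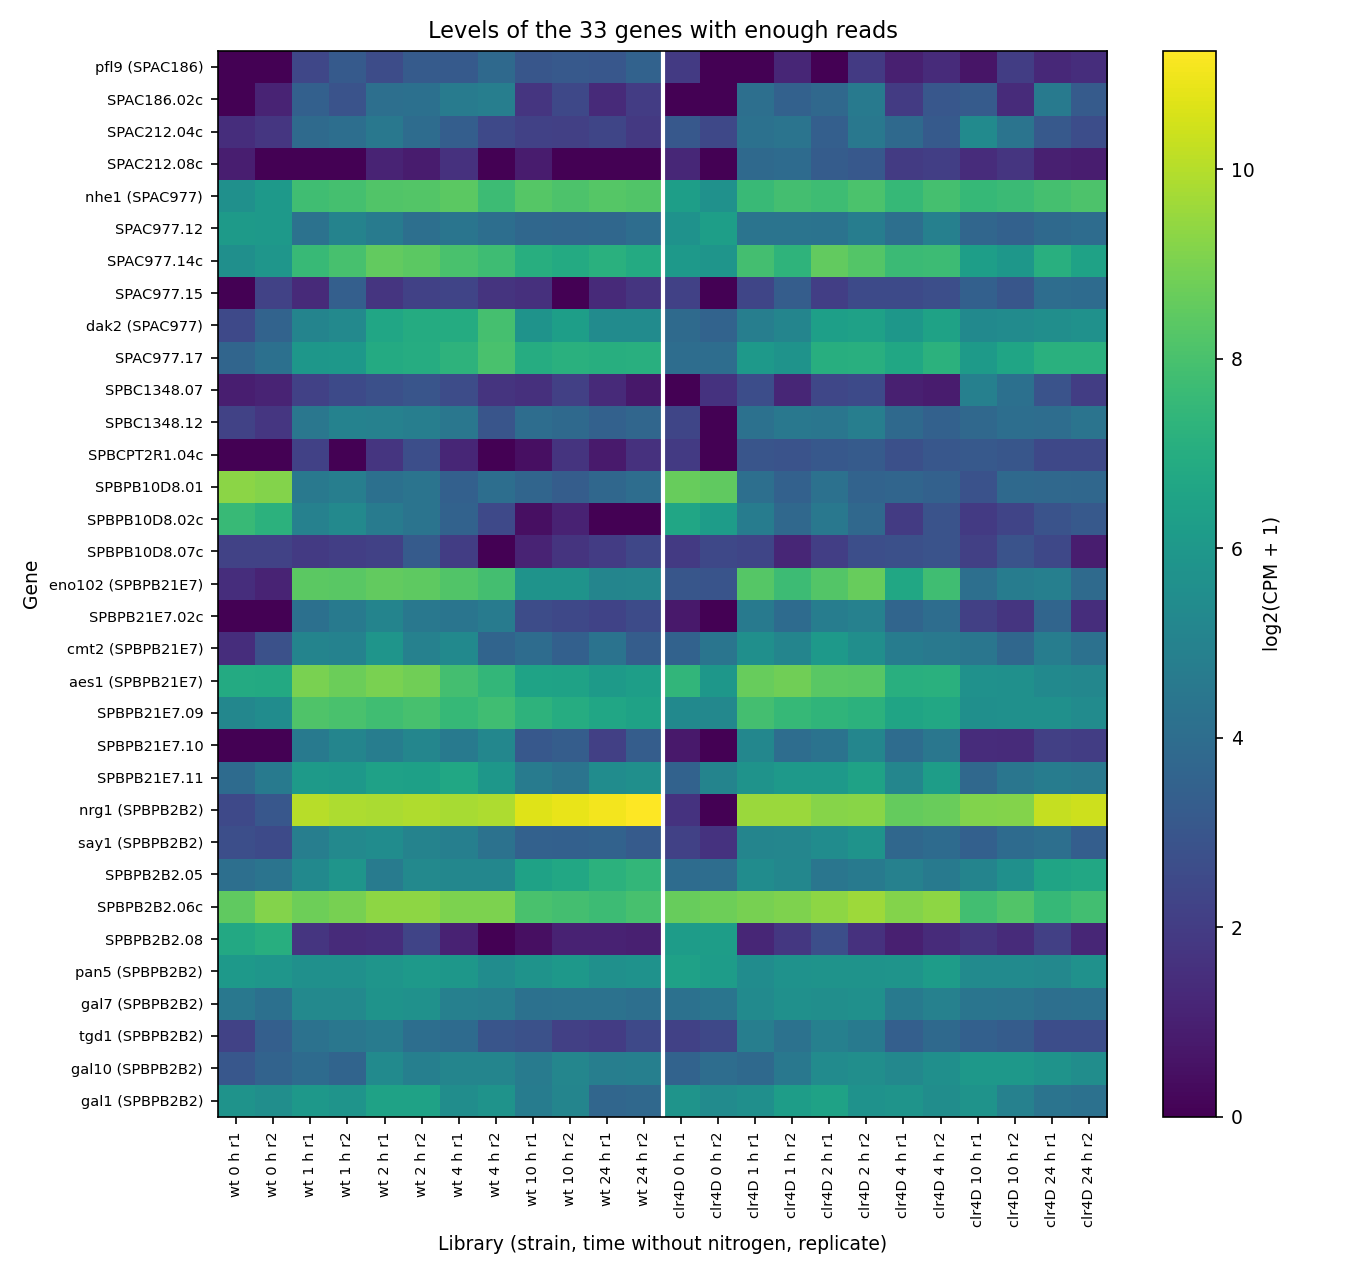
Levels of the 33 genes with enough reads (rows, ordered by clone) in each of 24 libraries (columns, strain, time in h and replicate), as log2(CPM + 1) by colour. The row of nrg1 is dark at 0 h and brightest in wt at 24 h, and SPBPB10D8.01, SPBPB10D8.02c and SPBPB2B2.08 are brightest at 0 h.

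Most of the tested genes differed from 0 h after 1 h without nitrogen, and in wt mostly upwards. In wt, 21 genes rose and 4 fell at 1 h, or 75.8% of 33, where 53.4% of all 5664 tested genes were called (26.5% higher, 26.9% lower) by edgeR's quasi-likelihood test at an adjusted p under 0.05. At 2 h 25 rose and 4 fell, against 54% of all genes called. At 4 h 19 rose and 4 fell, against 51%. At 10 h 13 rose and 6 fell, against 50.4%, and at 24 h 14 rose and 7 fell, against 52.3%. The median log2 change of the 33 genes was 2.36 at 2 h and 1.25 at 24 h (2.13 and 0.86 with genes at 0 reads in a group set to their bound), where the median of all tested genes was 0.00 and -0.04.

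The clr4D-labelled strain showed similar counts. At 1 h 20 genes rose and 5 fell, with 52.2% of all genes called. At 2 h 23 rose and 5 fell (background 52.3%), at 4 h 16 rose and 4 fell (49.2%), at 10 h 11 rose and 7 fell (54.6%, or 27.4% higher and 27.3% lower) and at 24 h 14 rose and 8 fell (54.7%). When libraries were scaled by their totals in place of TMM, the split at 10 h became 17 to 4 in this strain and 15 to 4 in wt, and at 24 h it became 18 to 6 in this strain. Of the genes called at 2 h, 26 were called in both strains, which is 89.7% of the wt calls and 92.9% of the clr4D-labelled calls. Over all tested genes these shares were 84% and 86.8%. At 10 h the shared number was 12, or 63.2% and 66.7%, where all tested genes gave 77.5% and 71.5%. None of the 33 was called in opposite directions in the 2 strains at any of the 5 times. Such calls were rare over all tested genes too. They numbered 0, 3, 10, 20 and 5 at these times, where 2536, 2570, 2146, 2212 and 2433 genes were called in both strains. In wt 12 genes rose at all 5 later times and 4 fell at all 5, or 36.4% and 12.1% of the 33, where 13.5% and 16.5% of all tested genes did. In clr4D-labelled libraries 7 rose and 4 fell at all 5, or 21.2% and 12.1%, where 12.4% and 17.1% of all tested genes did.

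The highest mean level fell at 2 h for 18 of the 33 genes in wt and for 15 in clr4D-labelled libraries. The share of all tested genes with their highest level at 2 h was not counted. All 7 tested genes of SPBPB21E7 rose at 2 h in both strains, where 26.4% of all tested genes rose in wt and 26% in clr4D-labelled libraries. In wt eno102, an enolase of this clone, had 1.805 and 1.2 CPM at 0 h, 374.3 and 353.5 at 2 h and 33.44 and 34.96 at 24 h. Its neighbour SPBPB21E7.02c, annotated in the phosphoglycerate mutase and 6-phosphofructo-2-kinase family, had no read in wt at 0 h and 32.45 and 21.38 CPM at 2 h, at least 17.4-fold higher (adjusted p 3.88e-06, against a floor of 3 reads in the group). The uncharacterized SPBPB21E7.10, likewise without a wt read at 0 h, was higher by at least 4.32 on the log2 scale at 2 h (adjusted p 9.43e-07). For these 3 genes the wt means at 10 and 24 h lay below those at 1, 2 and 4 h. On the opposite strand eno102 overlaps the counted gene SPNCRNA.1302, and SPBPB21E7.10 overlaps SPBPB21E7.11. Reads of each pair may not be told apart.

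On SPAC977, nhe1, dak2 and SPAC977.17 rose at all 5 later times in both strains. The Na+/H+ antiporter gene nhe1 went from 48.7 and 67.2 CPM in wt at 0 h to 288.0 and 298.5 at 2 h and 314.2 and 295.7 at 24 h. In clr4D-labelled libraries it went from 78.0 and 50.2 CPM to 214.8 and 265.7 at 2 h and 243.6 and 271.9 at 24 h. The level of SPAC977.17, of the family of water and glycerol channels, was 11.7 and 16.8 CPM in wt at 0 h and 133.4 and 137.8 at 24 h. The neighbour dak2, a dihydroxyacetone kinase of glycerol use, overlaps SPAC977.17 on the opposite strand, and the strand setting of the counting is not given in the sources used here, so reads of the pair may not be told apart.

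The most abundant gene of SPBC1348, SPBC1348.12, annotated as a DNA-binding transcription factor, had a mean of 3.005 CPM in wt at 0 h, 28.52 at 2 h (log2 3.17 ± 0.48) and 11.29 at 24 h (log2 1.85 ± 0.55). In clr4D-labelled libraries its means were 2.089, 23.76 and 17.17 CPM, and it was not called between the strains at any time. SPBPB2B2.06c, a phosphoprotein phosphatase gene second to nrg1 on its clone, was already high at 0 h, with 359 and 564 CPM in wt and 401 and 430 in clr4D-labelled libraries. It was not called between the strains either.

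Over the full 24 h in wt, nrg1 rose by log2 8.63 ± 0.28 SE (adjusted p 4.15e-17), eno102 by 4.40 ± 0.81, SPAC977.17 by 3.28 ± 0.28 and SPBPB2B2.05 by 3.20 ± 0.24. The cell-surface DIPSY glycoprotein gene pfl9 of SPAC186 (at least 5.77-fold), SPBPB21E7.10 (at least 4.003-fold) and SPBPB21E7.02c (at least 2.84-fold) had no wt read at 0 h, so these rises are bounds and are not ranked against the others. The call of SPBPB21E7.02c was lost when either wt library at 0 h was left out. In clr4D-labelled libraries nrg1 (log2 9.61 ± 0.33), SPBPB21E7.02c (log2 3.45 ± 1.15) and SPAC977.17 (log2 3.17 ± 0.29) rose, as did the hydroxyacid dehydrogenase gene SPAC186.02c, which had no read at 0 h (at least 10.006-fold). SPBPB21E7.02c was lost there without replicate 1 at 0 h or at 24 h. At 0 h the clr4D-labelled group had 3 reads of nrg1 and 1 of SPBPB21E7.02c, and the wt group had 3 of eno102. The sizes of these rises are therefore uncertain. The larger log2 rise of nrg1 than in wt is not read as a strain difference, since its mean at 24 h was 1291 CPM against 2278 in wt.

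The same 4 genes fell at all later times in both strains: SPAC977.12, SPBPB10D8.01, SPBPB10D8.02c and SPBPB2B2.08. SPBPB10D8.01, a cysteine transporter, had 628.9 and 572.4 CPM in wt at 0 h and 22.4 and 27.1 at 1 h. It fell from 600.7 to 13.93 CPM by 24 h (log2 -5.42 ± 0.17), and the change in clr4D-labelled libraries was log2 -4.88 ± 0.19. SPBPB2B2.08, uncharacterized, changed by log2 -6.71 ± 0.36 in wt and log2 -4.96 ± 0.36 in clr4D-labelled libraries. The asparaginase gene SPAC977.12 changed by log2 -2.26 ± 0.27 in wt and log2 -2.08 ± 0.29 in clr4D-labelled libraries.

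A second asparaginase gene, SPBPB21E7.09, rose at all 5 later times in wt and at 3 in clr4D-labelled libraries. It had 36.1 and 43.2 CPM in wt at 0 h, 280.1 and 258.6 at 1 h, 222.5 and 253 at 2 h, a mean of 202.6 ± 23.3 (SD, n = 2) at 4 h, 155.8 and 122.8 at 10 h and 98.8 and 88.2 at 24 h. In clr4D-labelled libraries the values were 39.7 and 37.1, then 238.2 in replicate 1 at 1 h with a lower value in replicate 2 (SD 36.8, n = 2), 162.7 and 147.7, 94.9 and 107.8, 46.91 and 48.85, and 49.49 and 42.55 CPM. Asparaginases release ammonium from asparagine. The strains overlapped at 0 h, and from 1 h on both wt libraries lay above both clr4D-labelled ones.

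Strain differences among the 33 tested genes were few in growing cells and most numerous at 10 h. At 0 h only SPBPB10D8.01 was called, lower in clr4D-labelled libraries (log2 -0.66 ± 0.13, edgeR adjusted p 0.0325), where 0.23% of all tested genes were called (0.194% higher, 0.0353% lower). That call was lost with any 1 of its 4 libraries left out. At 1 h only SPAC212.08c, annotated as GPI-anchored, was called, against a background of 0.671%. It had 13.5 and 14.1 CPM in clr4D-labelled libraries and no wt read, at least 14.6-fold higher (adjusted p 0.000291), and the call was lost without wt replicate 1. No wt group of this gene held more than 1.003 CPM, and of the 27 genes that passed the filter through either strain 0 were called at 1 h. At 2 h SPAC212.08c was higher (log2 2.99 ± 0.66, adjusted p 0.0135) and SPBPB21E7.09 lower (log2 -0.62 ± 0.14, adjusted p 0.0121), against a background of 1.55%. Both were lost without some of the 4 libraries: SPAC212.08c without any of them and SPBPB21E7.09 without replicate 2 of either strain.

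At 4 h, 1 gene was higher and 5 were lower, against 15% of all genes called (5.19% higher, 9.82% lower). The higher gene was SPBCPT2R1.04c, uncharacterized (log2 2.37 ± 0.74, adjusted p 0.0328). The lower genes were pfl9 (log2 -2.69 ± 0.78, adjusted p 0.0233), SPAC186.02c (log2 -2.24 ± 0.57), nrg1 (log2 -1.17 ± 0.17, adjusted p 5.14e-05), dak2 (log2 -1.05 ± 0.25) and SPBPB21E7.09 (log2 -0.96 ± 0.15, adjusted p 0.000123). In a fit to the 4 libraries of these groups alone no member was called, and without clr4D replicate 1 the count was 2. Of the 27 genes that passed through either strain, 0 were higher and 4 lower, against 4.71% and 10.3% of all such genes. The fit to the 4 libraries alone called 1.79% of all genes tested in it, so the background at 4 h depends on the fit as well. The wt library with 637723 gene reads is replicate 2 of this time, and its TMM factor was 0.695. DESeq2 called 0 higher and 4 lower.

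At 10 h, 5 genes were higher and 10 lower, or 45.5% of the 33, against 23.9% of all genes (12% higher and 12% lower). Of the 27 genes that passed through either strain, 2 were higher and 9 lower, against 10.2% and 12.6% of all such genes. The higher genes came from 5 clones, 1 from each. SPBC1348.07, uncharacterized, had 28.5 and 16.6 CPM in clr4D-labelled libraries and 1.96 and 3.32 in wt (log2 3.26 ± 0.50, adjusted p 2.98e-05). SPAC212.04c, also uncharacterized, had 40.2 and 18.9 against 3.53 and 3.32 CPM (log2 3.11 ± 0.46, adjusted p 1.76e-05). For both, each clr4D-labelled library lay above each wt library, and the clr4D replicates stood well apart from each other. The others were SPBCPT2R1.04c (log2 2.98 ± 0.78), the dienelactone hydrolase family gene SPAC977.15 (log2 2.56 ± 0.76) and gal10 (log2 1.17 ± 0.22).

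The 10 lower genes lay on SPBPB21E7 (4), SPAC977 (3), SPBPB2B2 (2) and SPAC186 (1). The strongest by test were SPBPB21E7.09 (log2 -1.57 ± 0.16, adjusted p 7.3e-08) and nrg1 (log2 -1.62 ± 0.17, adjusted p 1.21e-07). SPBPB2B2.05, of the glutamine amidotransferase class I family, had 32.95 and 49.64 CPM against 88.29 and 107.3 in wt (log2 -1.24 ± 0.21, adjusted p 7.4e-05). SPBPB21E7.10 (log2 -2.22) and pfl9 (log2 -2.09) were called at low levels. The first was lost with any 1 of its 4 libraries left out. The call of pfl9 was lost with library totals, with DESeq2 and without wt replicate 1, wt replicate 2 or clr4D replicate 1, and its difference ran from log2 -3.54 to -1.18 over the alternatives. Next came eno102 (log2 -1.43 ± 0.40), the aldo-keto reductase gene SPAC977.14c (log2 -0.85), aes1 (log2 -0.82), SPAC977.17 (log2 -0.69) and nhe1 (log2 -0.61). Without wt replicate 1 the split was 4 higher and 4 lower, without clr4D replicate 1 it was 3 and 4, and scaling by library totals gave 5 and 6.

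**Figure D3:**
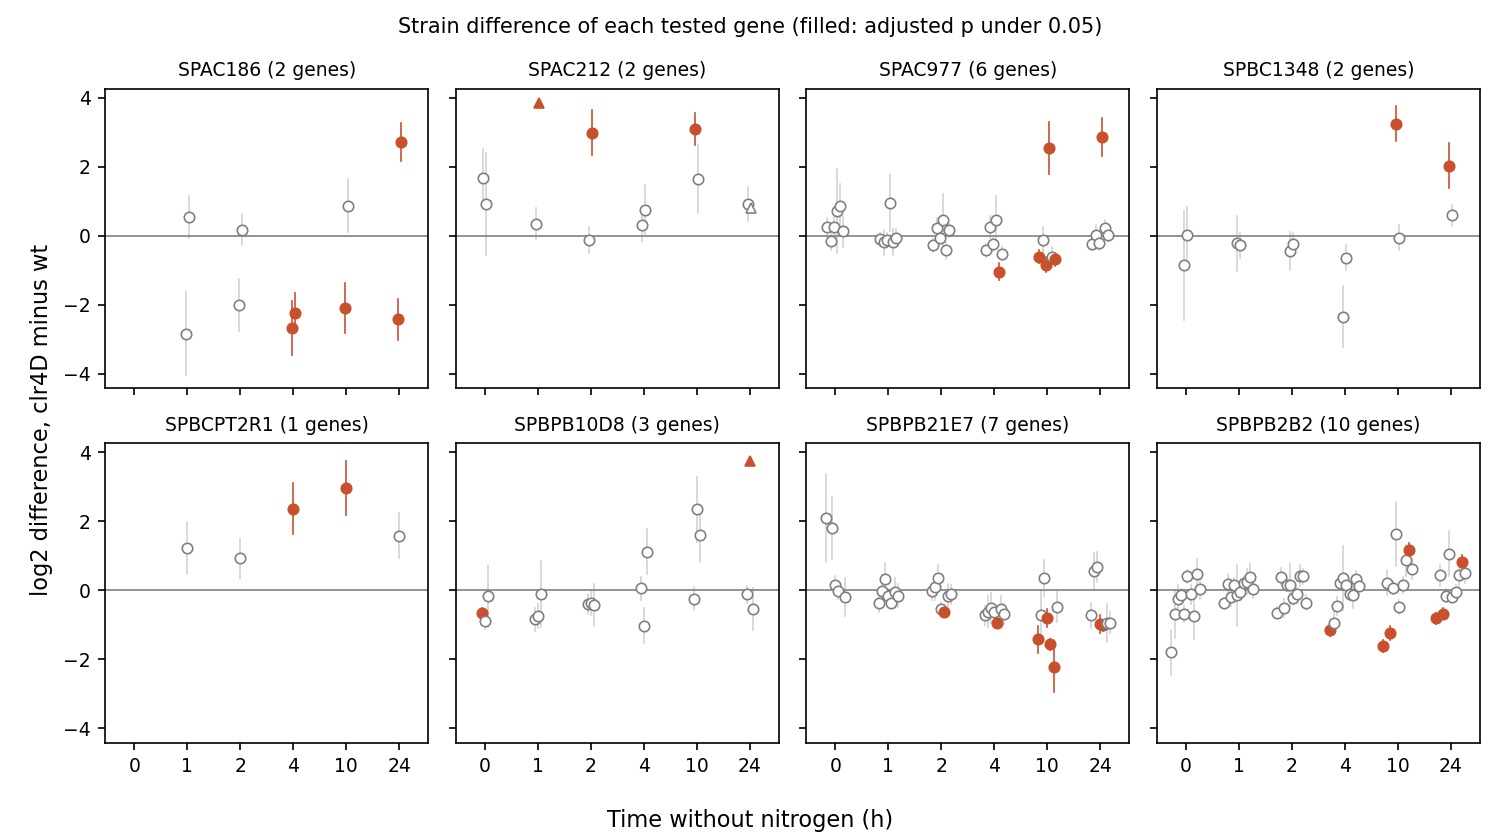
log2 difference of clr4D-labelled minus wt libraries (vertical axis) at each time in h without nitrogen (horizontal axis, not to scale) for each tested gene, 1 panel per clone. Filled points have an adjusted p under 0.05, bars are 1 SE, triangles are bounds where the other group had no read, and genes at or under the floor in both groups are not drawn. At 10 h the filled points of SPBPB21E7 all lie below 0, and those of SPAC212, SPBC1348 and SPBCPT2R1, 1 gene each, lie above 0. The filled genes of SPBC1348 and SPBCPT2R1 passed the read filter only through clr4D-labelled libraries and count as no support.

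At 24 h, 5 genes were higher and 5 lower, against 8.79% of all genes called (5.63% higher, 3.16% lower). SPBPB10D8.02c, an arylsulfatase gene, had 6.3 and 7.9 CPM in clr4D-labelled libraries and no wt read, at least 13.3-fold higher (adjusted p 6.66e-05). SPAC977.15 had 15.04 and 14.47 CPM against 1.52 and 2.331 (log2 2.87 ± 0.55, adjusted p 0.000997). SPAC186.02c had 23.29 and 8.334 CPM against 1.52 and 2.996 (log2 2.72 ± 0.55, adjusted p 0.00227), a call lost without clr4D replicate 1. SPBC1348.07 (log2 2.04 ± 0.64) and gal10 (log2 0.83 ± 0.20) completed the higher group. The call of SPBC1348.07 was lost with library totals, without the filter, with DESeq2 and without wt replicate 1, wt replicate 2 or clr4D replicate 1 (log2 1.48 to 2.67), and that of gal10 without the same 3 libraries. The lower genes were pfl9 (log2 -2.43 ± 0.59), SPBPB21E7.09 (log2 -1.02 ± 0.15, adjusted p 4.54e-05), aes1 (log2 -0.98 ± 0.25), nrg1 (log2 -0.82 ± 0.17) and SPBPB2B2.05 (log2 -0.68 ± 0.16). Of these, only SPBPB21E7.09 stayed called in every alternative. The calls of pfl9 and aes1 were lost without wt replicate 2 or either clr4D replicate. Those of nrg1 and SPBPB2B2.05 were lost without wt replicate 2 or clr4D replicate 1. Library totals also lost aes1 and SPBPB2B2.05, and DESeq2 lost SPBPB2B2.05. Of the 27 genes that passed through either strain, 3 were higher and 4 lower, against 4.31% and 3.31% of all such genes. The count over the 33 fell to 3 without clr4D replicate 1 and to 5 without wt replicate 2.

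Over the 6 single times 20 genes were called at least at 1 time: 7 only higher, 12 only lower, and SPAC186.02c in both directions, lower at 4 h and higher at 24 h. Over all tested genes 31.1% were called at 1 or more times, 14.3% only higher and 16.7% only lower. Of the 27 genes that passed through either strain, 15 were called, 3 only higher and 11 only lower. Of all such genes 30% were called, 12.3% only higher and 17.5% only lower. SPAC186.02c had 24.3 and 27.1 CPM in wt at 4 h against 2.905 and 7.186 in clr4D-labelled libraries, the reverse of its order at 24 h. The other 13 were called at no time. SPBPB21E7.09 was lower at 2, 4, 10 and 24 h, and nrg1 and pfl9 at 4, 10 and 24 h.

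In the galactose cluster of SPBPB2B2, gal10 (the epimerase) stood apart from its neighbours gal1 (the kinase) and gal7 (the transferase). gal10 had 63.7 and 63.8 CPM in clr4D-labelled libraries at 10 h and 24.7 and 35.4 in wt, with no overlap. At the same time gal7 had 19.6 and 18.9 against 17.3 and 17.7 CPM (log2 0.15 ± 0.23, not called) and gal1 54.2 and 29.9 against 25.5 and 34.3 CPM (log2 0.61 ± 0.28, not called). The difference between gal10 and its neighbours was not itself tested. tgd1, a nucleotide-sugar dehydratase gene overlapping gal10 on the opposite strand, had 10.1 and 8.67 against 5.89 and 3.32 CPM (log2 0.87 ± 0.45, not called).

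A mean of the 6 log2 differences called 6 genes higher and 7 lower, against 24.5% of all genes (10.3% higher, 14.2% lower). This mean cannot be read for 7 of the 33 genes, which had no read in at least 1 of the 12 groups. A log level of a group without reads has no lower limit, so the estimate and its p depend on that group. pfl9 shows this: it had 24 reads in clr4D-labelled libraries and 164 in wt and was called lower at 3 times, yet the mean gave an adjusted p of 0.997. For SPBPB10D8.02c the mean of logs was called higher (log2 0.97), while its mean level over the times was lower, 23.1 against 38.8 CPM. Among the 26 genes with reads in every group, 3 were called higher (SPAC977.15, SPAC212.04c and gal10) and 7 lower. SPAC977.15 passed the filter only through clr4D-labelled libraries, as did SPAC212.08c and SPBCPT2R1.04c among the 6 higher, so these calls count as no support. Of the 27 genes that passed through either strain, 3 were higher and 7 lower, against 9.22% and 15% of all such genes. Without clr4D replicate 1 at 0 h the calls of SPAC977.15 (log2 0.475) and SPAC212.04c (log2 0.937) were lost.

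A model with 1 strain term common to all times, added after the values were seen, is defined for all 33 genes. It called 5 higher and 9 lower, against 22.6% of all genes (10.6% higher and 11.9% lower). The higher genes were SPAC212.08c (log2 2.59 ± 0.45), SPBCPT2R1.04c (log2 1.72 ± 0.32), SPAC977.15 (log2 1.53 ± 0.35), SPAC212.04c (log2 0.87 ± 0.28) and gal10 (log2 0.65 ± 0.11). The lower genes were pfl9 (log2 -2.07 ± 0.37), nrg1 (log2 -0.94 ± 0.12), SPBPB21E7.09 (log2 -0.80 ± 0.11), SPBPB2B2.05 (log2 -0.65 ± 0.11), eno102, aes1, SPBPB10D8.01, SPBPB21E7.11 and nhe1, the last 5 between -0.27 and -0.51. Of these 14 genes, SPAC212.08c, SPBCPT2R1.04c and SPAC977.15 passed the filter only through clr4D-labelled libraries and pfl9 only through wt. SPBPB10D8.02c was not called there (log2 -0.35 ± 0.33).

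The course over time differed between the strains for 6 of the 33 genes by an F test of strain by time, or 18.2%, against 6.87% of all genes. They were SPBPB10D8.02c, SPBPB21E7.09, SPBC1348.07, SPAC186.02c, nrg1 and SPAC212.04c. SPBC1348.07 passed the filter only through clr4D-labelled libraries. Of the 27 genes that passed through either strain, 5 were called, against 6.53% of all such genes. SPBPB10D8.02c began higher in wt, with 189.5 and 147.6 CPM at 0 h against 99.6 and 74.2, and ended with no read in wt at 24 h, where the fall from 0 h was at least 317-fold. In clr4D-labelled libraries it fell by 3.65 ± 0.31 on the log2 scale and kept 2.8 and 3.9 CPM at 10 h. It overlaps SPBPB10D8.01 on the opposite strand, which does not show this order at 24 h (13.1 and 12.7 CPM against 12.5 and 15.3 in wt). A further counted gene, SPNCRNA.1307, overlaps SPBPB10D8.02c on the opposite strand, and its levels are not given here. Whether these genes share reads was not tested.

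**Figure D4:**
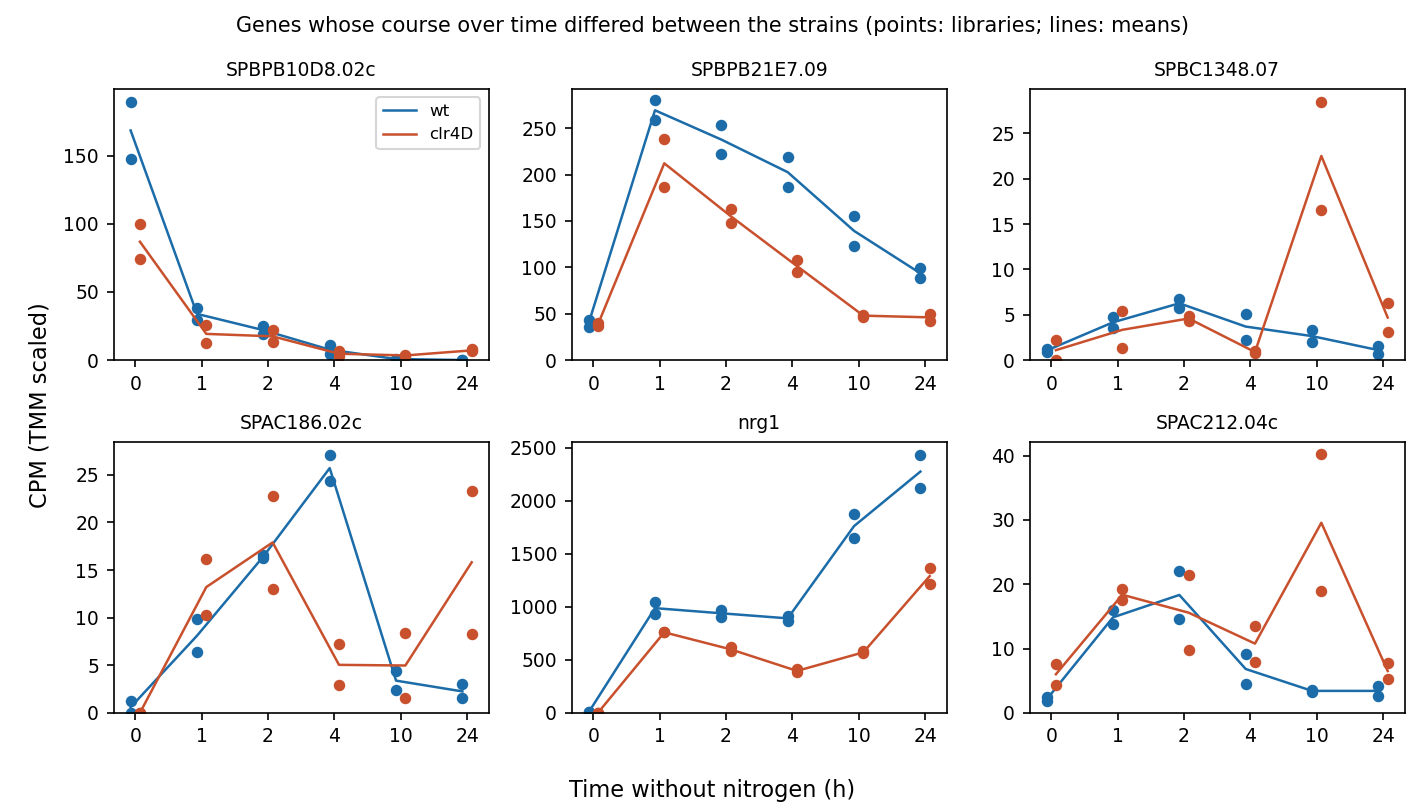
Levels in CPM (vertical axis, scale differs by panel) against time in h without nitrogen (horizontal axis, not to scale) for the 6 genes whose course differed between strains. Points are single libraries and lines join group means. nrg1 and SPBPB21E7.09 lie higher in wt from 1 h, and SPBC1348.07 and SPAC212.04c have their clr4D maximum at 10 h.

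The 51 genes without enough reads had 252 reads in wt and 505 in clr4D-labelled libraries, out of 23212045 and 14350291 gene reads. Summed per library, their level was 2.258 to 15.601 CPM in wt, with a median of 11.081, and 15.269 to 46.095 CPM in clr4D-labelled libraries, with a median of 29.762. The ranges touch at 0 h, where wt replicate 2 lies just above clr4D replicate 2, and at each later time both clr4D-labelled libraries lie above both wt libraries. Of the 30 genes with a read, 24 had reads in more clr4D-labelled than wt libraries, 4 in fewer and 2 in as many. Reads occurred only in clr4D-labelled libraries for 6 genes and only in wt for 1, pfl6. These counts were not made for other genes with few reads, so whether the lean is particular to these clones was not tested. Over all tested genes, 4.25% passed the filter only through clr4D-labelled libraries and 0.353% only through wt.

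**Figure D5:**
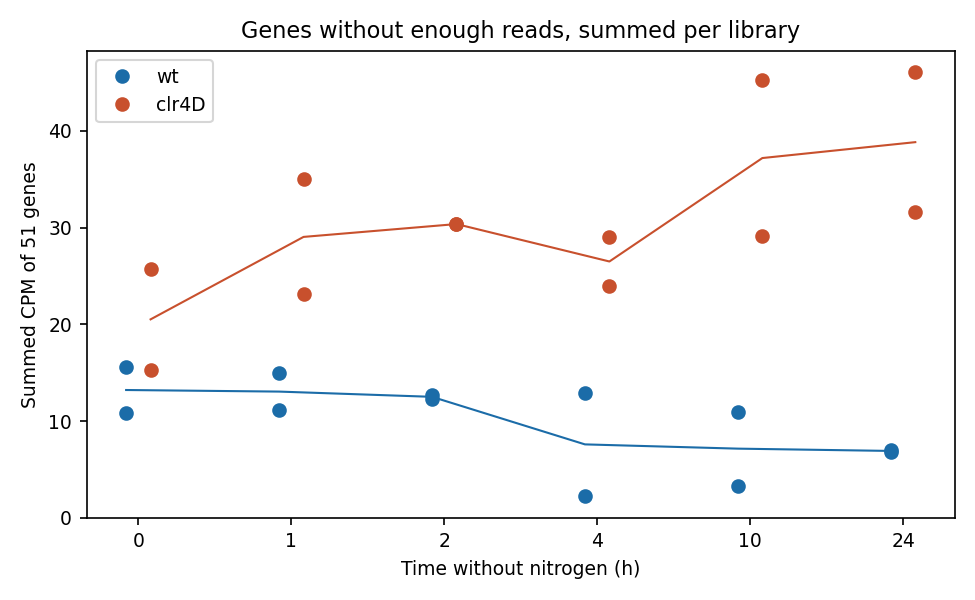
Summed level in CPM (vertical axis) of the 51 genes without enough reads in each library, by time in h without nitrogen (horizontal axis, not to scale). Points are libraries and lines join group means. wt libraries lie between 2.258 and 15.601 and clr4D-labelled libraries between 15.269 and 46.095.

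Among these genes, the clones at the right end of chromosome I differed most in reads between the strains. SPAC750 had 2 reads in wt and 87 in clr4D-labelled libraries, where each of the 12 libraries had at least 1. ftm4, which encodes a protein with predicted transmembrane helices, had no wt read and 52 reads in 11 clr4D-labelled libraries. Pooled over 12 libraries this is 3.36 CPM against a wt count of 0, which allows up to 0.128 CPM. SPAC750.06c, uncharacterized, had no wt read and 23 reads in 11 libraries. Under 10% of the windows of ftm4 and SPAC750.06c were unique, so these reads come from a small part of each gene.

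The 4 low genes of SPAC186 had 19 reads in wt and 93 in clr4D-labelled libraries. pdc102, a pyruvate decarboxylase gene, had 1 and 28 reads, the L-lactate dehydrogenase gene SPAC186.08c 1 and 13, and the hydroxyacid dehydrogenase gene SPAC186.07c 0 and 10. All windows of these 3 genes were unique. The asparaginase gene SPAC186.03 had 17 and 42. The 11 low genes of SPAC977 had 137 reads in wt and 162 in clr4D-labelled libraries, with a median summed level of 5.395 CPM per wt library and 8.854 per clr4D-labelled library.

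Fitted without the read filter and with 1 strain term common to all times, 11 of these 30 genes were higher and 0 lower, against 19.9% of all genes called (9.49% higher, 10.4% lower). 19 were not called at an adjusted p under 0.05, and of the 30 differences 28 were positive. Their median was log2 1.46, where that of all genes in this fit was 0. The share of positive differences among other genes with few reads was not counted. The 11 were ftm4 (log2 5.43 ± 0.67, adjusted p 2.86e-05), SPAC750.06c (log2 4.23 ± 0.70) and SPAC750.02c (log2 2.23 ± 0.71) on SPAC750, pdc102 (log2 3.92 ± 0.59, adjusted p 4.62e-05), SPAC186.07c, SPAC186.08c and SPAC186.03 on SPAC186, SPBC1348.01 and SPBC1348.05 on SPBC1348, SPAC977.18, and SPBPB2B2.18. No window of SPAC750.02c, SPBC1348.01 or SPBPB2B2.18 was unique. The share was 2.8% for SPBC1348.05, 17.4% for SPAC977.18 and 38.0% for SPAC186.03. Where the reads of such genes came from is therefore uncertain. Fold changes of genes with 0 to 2 wt reads depend on the prior of the fit. At single times, the same test without the filter called 0 of the 30 genes at 0 h (0.184% of all genes), 1 h (0.597%) and 4 h (12.1%). It called 1 at 2 h (1.32%), 5 at 10 h (20.6%) and 4 at 24 h (7.55%), all of them higher.

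Position along the chromosome arm separated the genes by reads. Of the 36 genes among the first 10 coding genes from a chromosome end, 4 had enough reads, 16 had none and 34 had under 50% unique windows. Of the 48 genes further in, 29 had enough reads, 5 had none and 19 had under 50% unique windows. The limit of 10 genes was chosen after the values were seen, so no test is given, and distance from the end and uniqueness of sequence cannot be told apart here.

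The 7 genes of these clones that the rule leaves out differed widely in level. gdt1 on SPAC186 had mean levels of 0.1665 to 0.6 CPM in the wt groups and 17.43 to 69.17 CPM in the clr4D-labelled groups, while tlh1 had 0 to 1.2 CPM and 2.089 to 7.011 CPM. Among 26 genes of silencing factors and telomere proteins, all tested, clr4 itself was higher at 0, 1 and 24 h and mit1, a chromatin remodeller subunit, at 10 h, and no other was called between the strains at a single time.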

How the data were processed

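The authors deposited read counts per feature, unnormalized. TopHat2 2.0.8, HTSeq 0.6.1 and the ASM294v2 genome are named, per the submitters' processing notes. Libraries were directional and depleted of ribosomal RNA, per the labels' protocols. No source used here gives the strand setting, the annotation release or the read length. Groups come from the sample titles. Members and lists were chosen with earlier results of these data known.

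Each library's 6878 features gave 6877 genes. edgeR 4.0.16 was run on 5664 genes kept by its default filter, with TMM factors of 0.695 to 1.263, 12 group means, robust quasi-likelihood F tests (two-sided) and Benjamini-Hochberg adjustment over all tested genes. A gene is called at an adjusted p under 0.05. SE is the log2 difference over the root of F. A count of 0 allows 3 reads, over a group 0.532 to 1.97 CPM, and covers counting error only. Bounds are computed against that floor. The fits were tested on simulated data.

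Genes named are, per strain comparison, up to 6 called higher and 6 lower by size, up to 4 and 4 for 24 h against 0 h, up to 6 for strain by time, and the 2 most abundant per clone; others named were chosen after their values were seen. Names and products come from ASM294v3, matched by systematic name for all 84 genes. That build differs from that of the counts, so no coordinates or sequences are given. Protein identity and promoter motifs were not analysed here. Replicate numbers were not used to pair the libraries in the main fit.

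DESeq2, other scalings, no filter, a replicate block, fewer libraries and leaving out each library were alternatives.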

Additional observations from a re-analysis of the deposited data

Results flagged for a closer look

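For 6 genes the change from 0 h differed between the strains by a test of strain by time (edgeR quasi-likelihood F test over 5 terms, 2 libraries per group). The adjusted p was 0.000301 for SPBPB10D8.02c, 0.00203 for SPBPB21E7.09, 0.00226 for SPBC1348.07 and 0.00647 for SPAC186.02c. These 4 stayed under 0.05 in every alternative that was run. SPBC1348.07 passed the read filter only through clr4D-labelled libraries, so its call counts as no support. The adjusted p was 0.0124 for nrg1, which rose to 0.0748 at most and passed 0.05 without clr4D replicate 1 or wt replicate 2 at 10 h. It was 0.0153 for SPAC212.04c, lost without either of those libraries or without wt replicate 1 at 10 h, with a highest value of 0.187.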

How the results depend on the processing

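The number of the 33 genes called stayed within 1.5 times the reported number for 118 combinations of comparison and alternative other than leaving out 1 library, and did not for 7: 0 h (1 reported; 0 with library totals, 0 with DESeq2, 2 with the replicate block), 2 h (2 reported; 1 with DESeq2, 4 with replicate 2 of wt at 0 h and at 4 h both left out, 5 with the 4 libraries only) and 4 h (6 reported, 0 with the 4 libraries only). With 1 library left out, the strain calls were 0 to 0 at 0 h, 0 to 1 at 1 h, 0 to 1 at 2 h, 2 to 7 at 4 h, 7 to 14 at 10 h, 3 to 9 at 24 h and 8 to 13 over the mean of 6 times. The lowest mean count came without clr4D replicate 1 at 0 h, which leaves several genes without a read in that group. Within wt the counts were 21 to 26, 24 to 28, 18 to 25, 17 to 19 and 18 to 21 at the 5 later times, within clr4D-labelled libraries 18 to 25, 22 to 26, 16 to 20, 14 to 19 and 15 to 23, and for strain by time 4 to 8.

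With 1 strain term common to all times, the difference of SPBPB10D8.02c changed sign, from log2 0.97 to -0.35. No other named gene reversed. Over all alternatives, 5 of 11 genes named at 10 h, 3 of 10 at 24 h, 5 of 12 over the mean, 7 of 8 in each strain at 24 h against 0 h, and none of those at 0, 1, 2 and 4 h stayed called throughout. For the other losses the cause was not tested. Library totals moved the median change of all genes to as much as 0.61 (log2, clr4D-labelled at 10 h against 0 h), so directions are relative to TMM. Over the mean of 6 times library totals gave 6 higher and 4 lower, and DESeq2 7 and 5. Replicate numbers gave correlations of deviations from -0.077 to 0.333 between groups (median 0.078, over 0.1 in 23 of 66 pairs). The replicate block changed the number of the 33 genes called by over 1.5 times at 0 h only. Over all tested genes it raised the calls from 389 to 545 for strain by time, from 1354 to 1523 at 10 h and from 498 to 605 at 24 h. Any effect shared by a replicate number is not modelled in the main fit. Alternatives that need protein identity or promoter sequence were not run. The 51 genes without enough reads are limited in what they can show, and depth and uniqueness of sequence were not separated for them.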
